A study of Mus musculus with 24 samples.

Results

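The genes for the AMPA-type glutamate receptor subunits (Gria1, Gria2, Gria3 and Gria4), the delta receptor gene Grid1 and the cerebellin genes (Cbln1, Cbln2, Cbln3 and Cbln4) were followed in cerebella of old and young adult mice. The 9 genes were taken by symbol, and all 9 were found among the 37991 Ensembl gene identifiers counted. The cerebella came from male C57BL/6J mice, an inbred strain with no allele or treatment named, at 79 weeks and 7 weeks of age, with 2 messenger RNA libraries at each age. The other 20 of the 24 samples are genomic DNA of cerebellum and cortex and were not analysed here. The titles number these libraries as replicates of an age, and among the genomic samples they mark technical replicates with a label of their own. No title names a mouse, so p-values reflect only how far these libraries differ. Within an age some genes differed widely. Reads of the choroid plexus gene Ttr numbered 97720 and 50 at 79 weeks, and those of Slc17a6 numbered 5 and 141 at 7 weeks. How much of the spread within an age is technical was not tested. The comparison between ages asked how transcript levels in the cerebellum differ between old and young adult mice.

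AMPA receptors are tetramers of the subunits GluA1 to GluA4, encoded by Gria1 to Gria4, and carry most fast excitatory transmission in the brain. RNA editing of the GluA2 subunit makes channels that hold it nearly impermeable to calcium, and in rodent cerebellum Bergmann glia are known for AMPA receptors without GluA2. Delta receptors, among them GluD1, encoded by Grid1, belong to the same family by sequence but serve mainly as synaptic organisers. In mouse cerebellum, cerebellin 1 is secreted by granule neurons and bridges their parallel fibre terminals to the spines of Purkinje cells, and cerebellin 3 joins cerebellin 1 in one complex.

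Of the 9 genes, 7 had enough reads to be tested, and 2 of these fell at 79 weeks: Cbln1 and Gria4. In edgeR none of the 7 rose, with 0 higher at an unadjusted p under 0.05, and 0 were called higher by DESeq2 or limma-voom. Cbln2 and Cbln4 were too low to test. A gene was called when edgeR's quasi-likelihood test gave an adjusted p (Benjamini-Hochberg over all 15292 tested genes) under 0.05. Of all tested genes 8.84% were called, 4.68% lower and 4.17% higher. With members chosen with earlier results of these data known, the count is a description. Levels are CPM, reads relative to library size after TMM scaling, and are compared here only between ages for the same gene, since the counts were not corrected for transcript length.

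Reads assigned to genes numbered 18901921 and 22826993 in the 79-week libraries, against 16367656 and 21124608 in the 7-week libraries, and the 9 genes took 61054 to 81564 of them. Markers of the tissue were present: the summed level of 12 granule neuron markers was 6369 and 6021 CPM at 79 weeks, against 7619 and 7486 CPM at 7 weeks. Of those 12 markers 6 fell and 1 rose. Of 12 Purkinje cell markers 6 fell and none rose, with summed levels of 9063 and 9303 CPM at 79 weeks and 11027 and 11060 CPM at 7 weeks. None of 10 molecular layer interneuron markers was called by edgeR (1 before adjustment at p under 0.05, and 1 in DESeq2), and of 12 Bergmann glia and astrocyte markers 2 rose and 2 fell. Of 10 myelinating oligodendrocyte markers 5 fell, of 10 oligodendrocyte precursor markers 3 fell, of 10 microglial markers 7 rose, and of 7 unipolar brush cell markers 2 rose and 1 fell. Of 10 markers of cerebellar nuclei and brainstem neurons 3 were tested and 0 called, by edgeR also at an unadjusted p under 0.05, by DESeq2 and by limma-voom. The first 79-week library stood apart in choroid plexus markers, with a summed level of 5390 CPM over 10 genes, against 42.3 CPM in the second 79-week library and 17.9 and 33.1 CPM at 7 weeks. Of its 8 tested markers edgeR called 0 (all 8 were higher before adjustment at p under 0.05), and DESeq2 called 1.

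Gria4 encodes GluA4, a subunit of granule neurons and Bergmann glia in the rodent cerebellum. Gria4 (ENSMUSG00000025892) stood at 487 and 475 CPM in the 79-week libraries, against 595 and 616 CPM in the 7-week libraries. Both old libraries lay below both young ones, with a gap several times the spread within an age. The means were 481 ± 8.55 CPM at 79 weeks and 606 ± 14.3 CPM at 7 weeks (SD, n = 2 each), and Gria4 fell by 20.6% (log2 fold change -0.33, SE 0.06, adjusted p = 0.0174 in edgeR). The median log2 fold change was -0.28 over 12 granule neuron markers and -0.015 over 12 Bergmann glia and astrocyte markers. Their part in the fall of Gria4 was not tested. In whole tissue, fewer cells of these types and less RNA per cell cannot be told apart. Gria4 kept a log2 fold change of -0.35 without the first 79-week library, the one high in choroid plexus markers. Without 7-week replicate 1 it was no longer called (-0.36, adjusted p = 0.126), nor without 7-week replicate 2 (-0.31, adjusted p = 0.101); edgeR called 0 genes of all tested in the first of these fits (2610 at an unadjusted p under 0.05) and 175 in the second. Over all 14 alternatives its adjusted p ranged from 6.72e-07 to 0.126.

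Gria2 encodes GluA2, the subunit whose editing sets calcium permeability. Gria2 (ENSMUSG00000033981) stood at 515 and 473 CPM at 79 weeks, against 476 and 500.5 CPM at 7 weeks. The ages overlapped, with the highest and the lowest value both in old libraries. The log2 fold change was 0.016 with a 95% interval of -0.14 to 0.17 (adjusted p = 0.904 in edgeR), so a fall as large as the estimate for Gria4 lay outside the interval.

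Gria1 encodes GluA1, known from Bergmann glia in the rodent cerebellum. Gria1 (ENSMUSG00000020524) stood at 637.5 and 649.5 CPM at 79 weeks, against 701 and 771 CPM at 7 weeks. The old libraries were below both young ones, but the young libraries differed from each other by more than the nearest old and young pair. The log2 fold change was -0.19 (SE 0.07, 95% interval -0.35 to -0.04), which edgeR did not call after adjustment (adjusted p = 0.114), while DESeq2 called it (log2 fold change -0.20, adjusted p = 0.0217). The estimate moved to -0.27 when the first 7-week library was left out and to -0.13 when the second was, and its adjusted p ranged from 0.0217 to 0.389 over the 14 alternatives.

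Gria3, an X-linked gene, encodes GluA3. Gria3 (ENSMUSG00000001986) stood at 152 and 144 CPM at 79 weeks, against 157 and 173 CPM at 7 weeks. The ages did not overlap, yet the gap between them was smaller than the spread within either age. It was not called (log2 fold change -0.16, SE 0.06, adjusted p = 0.157 in edgeR). Leaving out the first 7-week library gave an estimate of -0.23 and leaving out the second gave -0.087, and neither fit called it. Libraries of the ages did not overlap in 57.7% of all tested genes (28.7% lower and 29.1% higher at 79 weeks), so the 5 of 7 tested members with both old libraries below both young ones are read against that share.

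**Figure D1:**
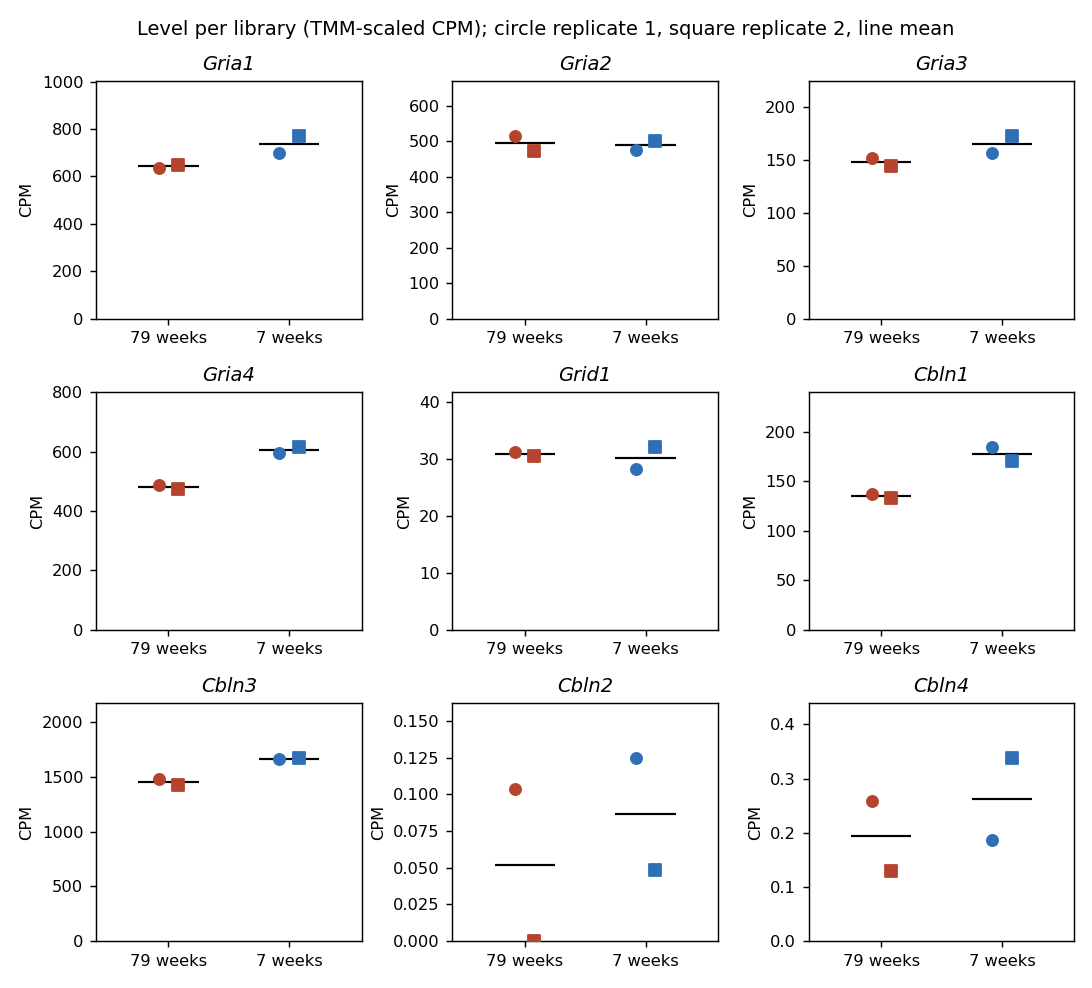
Level of each gene in each library in TMM-scaled CPM (linear axes from 0), with 79 weeks left of 7 weeks, circles for replicate 1, squares for replicate 2 and lines at the mean of an age. Gria4, at 487 and 475 CPM against 595 and 616 CPM, and Cbln1 are set apart by age, while Gria2 and Grid1 overlap and Cbln2 and Cbln4 stay below 1 CPM.

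Within a library, the reads of one subunit can be set against those of the others, a quantity that scaling between libraries cannot move. Of all Gria1 to Gria4 reads, Gria4 took 27.2% and 27.3% at 79 weeks, against 30.9% and 29.9% at 7 weeks. Gria2 took 28.8% and 27.1% at 79 weeks, against 24.7% and 24.3% at 7 weeks. The shares of Gria4 and Gria2 moved in opposite directions and did not overlap between ages, by -3.15 and 3.47 percentage points. Shares of one total are tied together, so a fall in some raises the rest. The level of Gria2 itself was not called (log2 fold change 0.016, adjusted p = 0.904 in edgeR). Gria1 took 35.6% and 37.3% at 79 weeks and 36.3% and 37.4% at 7 weeks, and Gria3 took 8.47% and 8.27% at 79 weeks and 8.13% and 8.38% at 7 weeks, both with overlap between ages. Shares are of reads and not of molecules or channels, since longer transcripts give more reads. The ratio of Gria4 to Gria2 reads, chosen after the levels were seen and given as a description, was 0.945 and 1.005 at 79 weeks, against 1.25 and 1.23 at 7 weeks. With 2 libraries against 2 the two-sided exact permutation test cannot give a p below 0.333, the value it gave for the shares of Gria4 and Gria2.

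**Figure D2:**
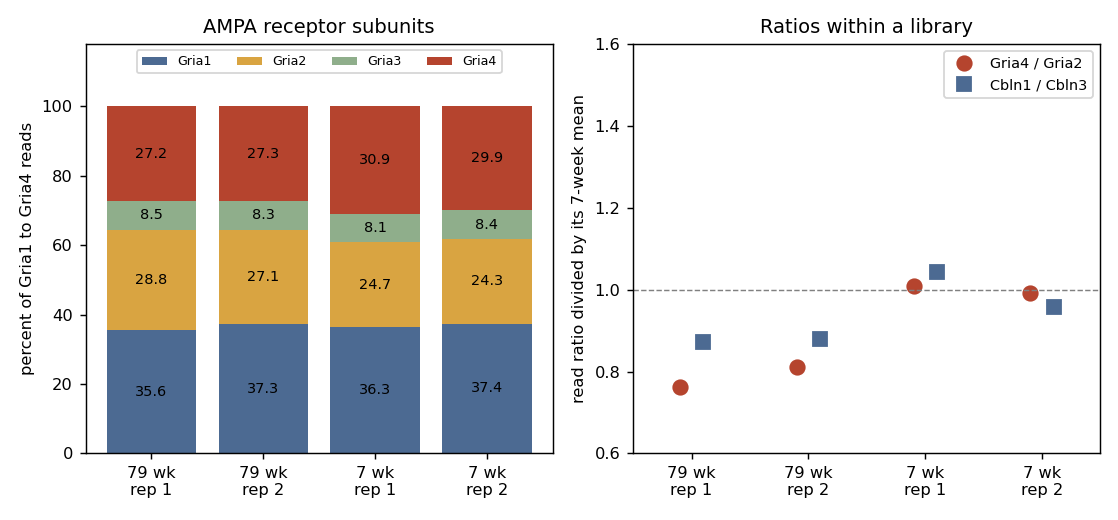
Left, percent of Gria1 to Gria4 reads taken by each subunit in each library; right, read ratios of Gria4 to Gria2 and Cbln1 to Cbln3 in each library, divided by the mean ratio of the 7-week libraries (dashed line at 1). The Gria4 segment shrinks to 27.2% and 27.3% at 79 weeks, against 30.9% and 29.9% at 7 weeks, and both ratios lie below their 7-week mean in both old libraries.

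The promoter windows of Gria4 and Gria2 are shown because the levels of this pair parted between ages and because the series concerns methylation of CpG sites, marked here in capitals. RefSeq's tables for mouse build GRCm38.p6 held windows for 4 of the 9 genes, and the 250 bases before the annotated start are printed 5′ to 3′ on the gene's strand; the counts themselves were made on build mm9. The Gria4 window lies at chr9:4796235-4796484 and the Gria2 window at chr3:80802836-80803085, both on the minus strand.
Gria4: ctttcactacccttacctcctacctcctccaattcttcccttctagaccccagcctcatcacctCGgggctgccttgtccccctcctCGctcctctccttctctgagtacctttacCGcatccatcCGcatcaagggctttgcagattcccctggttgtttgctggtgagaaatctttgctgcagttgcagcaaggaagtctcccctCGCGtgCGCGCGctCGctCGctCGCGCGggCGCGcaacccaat
Gria2: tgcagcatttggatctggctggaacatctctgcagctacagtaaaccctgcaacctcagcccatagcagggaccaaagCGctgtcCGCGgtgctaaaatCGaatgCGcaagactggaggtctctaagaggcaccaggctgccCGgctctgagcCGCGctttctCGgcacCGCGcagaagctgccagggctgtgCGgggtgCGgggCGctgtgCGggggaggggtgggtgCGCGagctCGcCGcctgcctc
The Gria4 window holds 16 CpG sites, most of them in the part nearest the start, and the Gria2 window holds 19. The median over 32851 RefSeq windows of the same length was 6 CpG sites, and 74.6% and 80.3% of windows had fewer than Gria4 and Gria2. Neither window holds TATAAA on either strand, as found in 12.4% of windows, nor the cyclic AMP response element TGACGTCA, found in 1.55%. Each holds 1 match to the E-box letters CANNTG, which 66.2% of windows hold. These are matches of letters only, and methylation at these sites was not analysed here.

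Grid1 encodes GluD1, the delta receptor that is more widespread outside the cerebellum. Grid1 (ENSMUSG00000041078) stood at 31.2 and 30.5 CPM at 79 weeks, against 28.3 and 32.1 CPM at 7 weeks. The old libraries lay between the young ones. The log2 fold change was 0.027 with a 95% interval of -0.19 to 0.24 (adjusted p = 0.883 in edgeR). RefSeq lists a microRNA, a long noncoding RNA and a pseudogene that overlap Grid1 and a long noncoding RNA that overlaps Gria4. The strand setting of the counting is not given in the sources used here. Where sequence is shared, reads of such genes therefore cannot be told apart from those of Grid1 and Gria4.

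Cbln1 encodes cerebellin 1, the ligand that granule neurons secrete onto Purkinje cell spines. Cbln1 (ENSMUSG00000031654) stood at 138 and 134 CPM at 79 weeks, against 185 and 171 CPM at 7 weeks. Both old libraries lay well below both young ones. The means were 136 ± 2.90 CPM at 79 weeks and 178 ± 10.03 CPM at 7 weeks (SD, n = 2 each), and Cbln1 fell by 23.7% (log2 fold change -0.39, SE 0.06, adjusted p = 0.0113 in edgeR). Its log2 fold change was -0.41 without the library high in choroid plexus markers. Without 7-week replicate 1 the estimate was -0.34, and Cbln1 was no longer called. Granule neuron markers, with a median log2 fold change of -0.28 over 12 tested genes, moved in the same direction, and their part in the fall was not tested. In whole tissue, fewer cells of a type and less RNA per cell cannot be told apart.

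Cbln3 encodes cerebellin 3, a granule neuron protein that in mice needs cerebellin 1 to be secreted. Cbln3 (ENSMUSG00000040380) stood at 1482 and 1423 CPM at 79 weeks, against 1661 and 1673 CPM at 7 weeks. The ages did not overlap, and the gap was larger than the spread within either age. The log2 fold change was -0.20 (SE 0.06, 95% interval -0.33 to -0.07), not called by edgeR (adjusted p = 0.074) but called by DESeq2 (adjusted p = 0.0022) and limma-voom (adjusted p = 0.0413), with a range of 0.0022 to 0.292 over the 14 alternatives.

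Cbln1 and Cbln3 were also set against each other within each library, a ratio chosen after the levels were seen and given as a description. For each Cbln3 read there were 0.093 and 0.0939 Cbln1 reads at 79 weeks, against 0.111 and 0.102 at 7 weeks. The ratio was lower in both old libraries than in either young one. The young libraries differed from each other by more than the nearest old and young pair. For this ratio the exact permutation test gave p = 0.333, the lowest it can give here. The granule neuron markers varied widely among themselves, with log2 fold changes from -0.57 to 0.33. Gabra6, a GABA-A receptor subunit gene particular to granule neurons in the cerebellum, had the largest fall of the 12, at 591 and 591.5 CPM at 79 weeks, against 888 and 869 CPM at 7 weeks (log2 fold change -0.57, SE 0.06, adjusted p = 0.00402 in edgeR). Neurod2, a transcription factor gene of granule neurons named after its values were seen, was the one that rose (log2 fold change 0.33, adjusted p = 0.0142 in edgeR).

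Cbln2 and Cbln4 encode cerebellins found mainly outside the cerebellar cortex in mice. Cbln2 (ENSMUSG00000024647) had 2 and 0 reads at 79 weeks, against 2 and 1 reads at 7 weeks. Cbln4 (ENSMUSG00000067578) had 5 and 3 reads at 79 weeks, against 3 and 7 reads at 7 weeks. Cbln2 stayed below the limit that a count of 0 allows, 3 reads or 0.13 to 0.187 CPM by library. Cbln4 was at that limit in 79-week replicate 2 and 7-week replicate 1 and above it, at 5 and 7 reads, in the others. A change with age was not detectable at this depth, and no fold is given. That limit covers counting error only. Nearly all cerebellin reads were those of Cbln3, at 91.5% and 91.4% at 79 weeks and 90.0% and 90.7% at 7 weeks, and of Cbln1, at 8.50% and 8.58% at 79 weeks and 10.01% and 9.26% at 7 weeks.

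The windows of Cbln3 and Cbln4 are shown as the cerebellin with the most reads and one with next to none, again with CpG sites in capitals (GRCm38.p6, minus strand, chr14:55884257-55884506 and chr2:172043467-172043716).
Cbln3: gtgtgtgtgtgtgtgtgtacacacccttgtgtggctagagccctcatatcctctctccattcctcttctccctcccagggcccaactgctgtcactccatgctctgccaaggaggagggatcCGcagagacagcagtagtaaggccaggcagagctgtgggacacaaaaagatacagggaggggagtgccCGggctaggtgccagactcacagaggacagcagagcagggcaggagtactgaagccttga
Cbln4: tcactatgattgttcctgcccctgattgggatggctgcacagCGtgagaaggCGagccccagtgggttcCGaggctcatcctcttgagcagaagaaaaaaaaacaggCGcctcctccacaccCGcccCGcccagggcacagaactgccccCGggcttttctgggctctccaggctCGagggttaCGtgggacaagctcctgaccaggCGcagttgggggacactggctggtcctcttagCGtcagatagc
The Cbln3 window holds 2 CpG sites, with fewer in 18.8% of RefSeq windows, and the Cbln4 window holds 11, with fewer in 64.4%. Neither holds TATAAA or TGACGTCA, and each has 1 match to CANNTG.

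**Figure D3:**
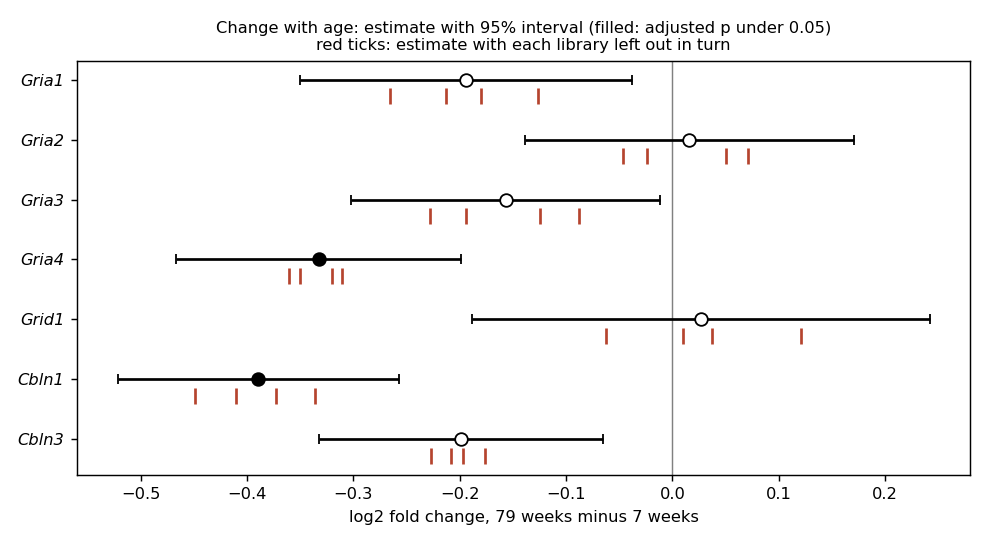
Log2 fold change, 79 weeks minus 7 weeks, of the 7 tested genes, with 95% intervals from edgeR's fit; filled points passed an adjusted p of 0.05, and red ticks give the estimate with each library left out in turn. Gria4 at -0.33 and Cbln1 at -0.39 keep all ticks below 0, while the ticks of Gria2 and Grid1 fall on both sides of it.

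Auxiliary subunits of AMPA receptors steer their delivery and gating. Of 15 such genes, 14 were in the files and tested, and 3 fell, 1 rose and 10 were not called (median log2 fold change -0.23, against 0.01 over all tested genes). The calls over all tested genes were 4.68% lower and 4.17% higher. Shisa6, which holds AMPA receptors at synapses, stood at 236 and 237 CPM at 79 weeks, against 298 and 302 CPM at 7 weeks (log2 fold change -0.34, adjusted p = 0.00934 in edgeR). Syndig1, a synapse organiser that binds AMPA receptors, fell by 21.7%, and the cornichon gene Cnih2, which slows channel closing, fell by 30.1%. Shisa7, reported in mice to bind both AMPA and GABA-A receptors, went the other way, at 36.9 and 34.9 CPM at 79 weeks, against 19.2 and 22.4 CPM at 7 weeks, a 1.72-fold rise (log2 fold change 0.78, SE 0.10, adjusted p = 0.00856 in edgeR). Cacng2, the stargazin gene needed for AMPA receptors at granule neuron synapses in mice, was named after its values were seen: 230.01 and 245 CPM at 79 weeks, against 269.7 and 280.2 CPM at 7 weeks (adjusted p = 0.0509). The number of falls was 6 in DESeq2 and 6 with robust dispersion estimates. Over all genes these fits called 754 and 933 lower, against 715 in the main fit. The number was higher without 79-week replicate 2 and lower without either 7-week library, and so was the number over all genes.

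Proteins that assemble, anchor or cluster AMPA receptors were covered by 19 tested genes, of which 5 fell, 0 rose and 14 were not called (median log2 fold change -0.17). Of all tested genes 4.68% were called lower and 4.17% higher. Olfm3, a secreted olfactomedin (noelin) that binds AMPA receptors, stood at 143 and 142 CPM at 79 weeks, against 238 and 226 CPM at 7 weeks (log2 fold change -0.70, SE 0.05, adjusted p = 0.00257 in edgeR). Dlg2, the scaffold PSD-93, stood at 216 and 215 CPM at 79 weeks, against 301 and 302 CPM at 7 weeks (log2 fold change -0.48, adjusted p = 0.00343). Nptx1, a pentraxin that clusters AMPA receptors from outside the cell, fell by 21.6%, and the pentraxin receptor gene Nptxr fell by 37.7%. Frrs1l, an assembly factor in the endoplasmic reticulum named after its values were seen, fell by 17.8%. The number of falls was lower without either 7-week library, and so was the number over all genes.

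Partners of cerebellins and delta receptors reported here numbered 5, all tested, of which 1 fell, 0 rose and 4 were not called (median log2 fold change -0.14). Over all tested genes the calls were 4.68% lower and 4.17% higher. The called gene was Grid2ip, whose product delphilin is a scaffold protein of Purkinje cell synapses. Grid2ip stood at 147 and 149 CPM at 79 weeks, against 189.6 and 198 CPM at 7 weeks (log2 fold change -0.40, SE 0.05, adjusted p = 0.00783 in edgeR). Both old libraries lay well below both young ones. Of 12 Purkinje cell markers 6 fell and 6 were not called, and their log2 fold changes ran from -0.53 to 0.14 (median -0.18). The estimate was below 0 for 9 of them and above 0 for 3, and their part in the fall of Grid2ip was not tested. Nrxn2 and Nrxn3 encode neurexins, presynaptic proteins of the family that cerebellins bind, and were named after their values were seen. Nrxn2 stood at 634 and 689 CPM at 79 weeks, against 818 and 764 CPM at 7 weeks (log2 fold change -0.26, adjusted p = 0.0606 in edgeR). Nrxn3 stood at 429 and 455 CPM at 79 weeks, against 490.5 and 485 CPM at 7 weeks (log2 fold change -0.14, adjusted p = 0.177 in edgeR). Each was lower in both old libraries than in either young one, as were 28.7% of all tested genes. Each had an unadjusted p under 0.05 in edgeR, which called neither after adjustment. The number of falls in the list was 2 in DESeq2 and in limma-voom. Over all genes these fits called 754 and 674 lower, against 715 in the main fit. The number was higher without 79-week replicate 2 and lower without either 7-week library, and so was the number over all genes.

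RNA editing enzymes, which include the one that edits GluA2 transcripts, had 0 of 3 genes called in either direction by edgeR, DESeq2 or limma-voom, and 0 at an unadjusted p under 0.05 in edgeR. That enzyme's gene, Adarb1, stood at 404 and 443 CPM at 79 weeks, against 388 and 416 CPM at 7 weeks, with overlap between ages (log2 fold change 0.08, SE 0.07, adjusted p = 0.525 in edgeR). Adar stood at 195 and 189.9 CPM at 79 weeks, against 188.9 and 193 CPM at 7 weeks (adjusted p = 0.908). Editing itself cannot be read from gene counts. Among C1q-like ligands, relatives of the cerebellins, and their receptor, 4 of 5 genes were tested, and the same tests again gave 0 calls. With 8.84% of all tested genes called by edgeR, 0 calls in lists this short do not show that these genes held steady. The receptor gene Adgrb3 stood at 136 and 133 CPM at 79 weeks, against 138 and 153 CPM at 7 weeks (adjusted p = 0.303), and the ligand gene C1ql3 stood at 3.57 and 5.10 CPM at 79 weeks, against 3.49 and 7.05 CPM at 7 weeks (adjusted p = 0.645).

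**Figure D4:**
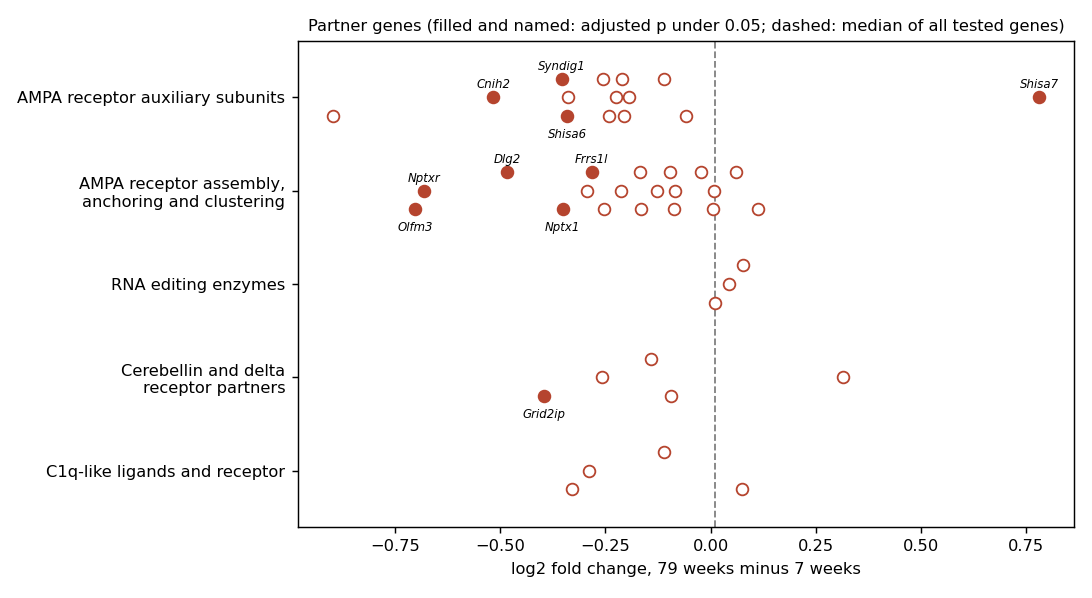
Log2 fold change, 79 weeks minus 7 weeks, of each tested partner gene by list (vertical offsets only separate the points); filled and named points passed an adjusted p of 0.05 in edgeR, and the dashed line marks the median of all tested genes, 0.01. Shisa7 at 0.78 is the one filled point right of the line, and 9 filled points lie left of it.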

How the data were processed

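Messenger RNA of mouse cerebellum was sequenced in 4 libraries, 2 at 79 weeks and 2 at 7 weeks. The authors deposited raw read counts, one per Ensembl gene and library. Per the submitters' processing notes the authors used cutadapt, STAR and HTSeq with build mm9 (versions, annotation release and strand setting: not given in the sources used here). The 5 HTSeq summary lines per file, 35.5% to 40.7% of its total, were removed. Of 37991 identifiers, 32919 had a symbol in the reference table.

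In edgeR 4.0.16 (R 4.3.3), low counts were filtered by filterByExpr (at least 10 in enough libraries and 15 in total), libraries were scaled by TMM, and 79 weeks was compared with 7 weeks in the quasi-likelihood test, left at its defaults with age alone in the model, with Benjamini-Hochberg adjustment over 15292 genes and a threshold of 0.05. The code was tested on simulated data. Standard errors are the log2 fold change divided by the root of F. Shares were compared by a two-sided exact permutation test.

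Members and lists were chosen with earlier results of these data known. Genes named were the members and from each partner list up to 4 called genes by smallest adjusted p or, with none called, the 2 highest, and Gabra6 as the granule marker with the smallest adjusted p; others are marked. For 2 genes of the partner lists, results are not reported here. Alternatives were RLE and library size scaling, other low-count filters, DESeq2 1.42.0, limma-voom (limma 3.58.1), robust or legacy=FALSE dispersions, a replicate block and each library left out, which leaves a lone library assumed to vary like the others. A crossed block was added after seeing the data.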

Additional observations from a re-analysis of the deposited data

How the results depend on the processing

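The directions of Gria1, Gria3, Gria4, Cbln1 and Cbln3 held under all 14 alternatives. With each library left out in turn, the log2 fold change ranged from -0.36 to -0.31 for Gria4, from -0.45 to -0.34 for Cbln1, from -0.27 to -0.13 for Gria1, from -0.23 to -0.087 for Gria3 and from -0.23 to -0.18 for Cbln3; Gria4 was not called when either 7-week library was left out, nor Cbln1 without 7-week replicate 1, and both were called under each other alternative. Gria2 ranged from -0.047 to 0.071 and Grid1 from -0.063 to 0.12, with the sign reversed without 79-week replicate 1 (-0.047, Gria2) and without 7-week replicate 1 (-0.024 for Gria2, -0.063 for Grid1). DESeq2 called Gria1 (-0.20) and Cbln3 (-0.21), and limma-voom called Cbln3 (-0.20), so that DESeq2 called 4 members lower, against 2 in edgeR. The number of members called lower was 0 to 2 with a library left out, and no alternative called one higher. The cause of these differences was not tested.

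Over all genes, 1352 were called, 3051 without the low-count filter and 0 to 2425 with a library left out. Library size scaling gave 901 higher and 484 lower calls (65.1% higher), against 637 and 715 (47.1% higher) with TMM, and shifted the median of all genes to 0.06. Falls among auxiliary subunits numbered 3, against 8 without the filter, 6 in DESeq2, 6 with robust dispersions and 0 to 7 with a library left out. Falls among assembly and clustering genes numbered 5, and 0 to 6 with a library left out. Falls among cerebellin and delta receptor partners numbered 1, against 2 without the filter, in DESeq2, in limma-voom and with robust dispersions, and 0 to 2 with a library left out. The count of rises over these lists, 1 (Shisa7), was 0 to 1 with a library left out.

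The labels do not say that replicate numbers pair animals across ages, and the deviations of same-numbered libraries correlated at -0.108. With a replicate block 1396 genes were called, among them 2 partners of cerebellins and delta receptors called lower. Gria4 (-0.33) and Cbln1 (-0.39) stayed called. With crossed pairs as the block 2014 genes, 7 auxiliary subunits and 2 partners of cerebellins and delta receptors were called. Shares per transcript length were not run, as no transcript lengths were used here.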

Other observations

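Among the markers of cerebellar nuclei and brainstem neurons, the vesicular glutamate transporter gene Slc17a6 was chosen after its values were seen. It stood at 1.45 and 1.43 CPM at 79 weeks, against 0.312 and 6.80 CPM at 7 weeks. The second young library was thus high, with 141 reads against 5 in the first, while Cbln2 had 1 read in the second young library and 2 in the first, and Cbln4 had 7 and 3.

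Gsg1l, an auxiliary subunit gene of AMPA receptors named after its values were seen, stood at 8.03 and 13.1 CPM at 79 weeks, against 27.2 and 12.9 CPM at 7 weeks. The first young library was far above the second, the ages overlapped, and the log2 fold change of -0.90 (SE 0.35) was not called (adjusted p = 0.152 in edgeR).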
